A study of Homo sapiens with 6 samples.

Results

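The 9 genes described here are markers of injury and repair in the kidney tubule: HAVCR1, LCN2, IGFBP7, CLU, SPP1, CD44, VCAM1, DCDC2 and PROM1. They were chosen by symbol, and all 9 were found among the 34157 genes of the deposited table. RNA was sequenced from HK-2 cells, an established human line derived from proximal tubule epithelium and immortalised with papillomavirus oncogenes. There were 3 libraries of wild-type HK-2 cells given GDF5 at 100 ng/ml for 48 hours and 3 libraries of wild-type HK-2 cells labelled as control, whose handling the labels do not describe further. GDF5 (growth differentiation factor 5) is a ligand of the bone morphogenetic protein family. All 6 libraries come from 1 cell line. Whether the replicates are separate cultures is not stated in the labels, so the p-values reflect library-to-library spread that may be technical.

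When the proximal tubule is damaged, its cells lose their brush border and switch on a set of genes that intact tubules hold at low levels. Some of the products are shed or secreted into urine and serve as biomarkers of acute kidney injury, as do kidney injury molecule 1 (HAVCR1), neutrophil gelatinase-associated lipocalin (LCN2), IGFBP7 and clusterin (CLU). Others are adhesion molecules and matrix ligands, such as osteopontin (SPP1), its receptor CD44 and VCAM1. In kidney tissue, cells that keep VCAM1, DCDC2 and PROM1 after injury have been described as failing to complete repair.

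Values are RPKM, reads per kilobase of gene length scaled to the reads assigned to genes in each library. Reads assigned to genes came to 43883505 to 56038368 per library with GDF5 and 45101929 to 56017101 in control. The SD of the gene-by-gene log2 difference between libraries was 0.142 to 0.175 within the GDF5 group, 0.168 to 0.181 within control and 0.239 to 0.253 between the groups. GDF5 replicate 1 was the farthest from the others of its group, at 0.174 and 0.175, where GDF5 replicates 2 and 3 differed by 0.142. Mitochondrial genes took 10.1 to 10.3% of reads with GDF5 and 7.92 to 8.71% in control, and their part in the changes below was not tested. Of 11 proximal tubule markers 3 reached a mean of 1 RPKM, the level for the tests described below. All 3 of these, PAX8, GATM and GGT1, were called lower with GDF5 in limma, beside 17.5% of all tested genes. With median-of-ratios scaling 2 of them, PAX8 and GATM, were called lower, beside 10.8% of all tested genes. The call of GGT1 ended in 7 of 12 alternatives. PAX8 averaged 27.3 ± 1.06 RPKM with GDF5 and 36.9 ± 3.19 RPKM in control and GATM, an enzyme of creatine synthesis, 1.07 ± 0.103 RPKM with GDF5 and 2.29 ± 0.109 RPKM in control (SD, n = 3 each), while LRP2 and HNF4A were under 0.01 RPKM in every library. The summed level of the proximal tubule markers was 29.3 to 31.7 RPKM with GDF5 and 38.5 to 45.0 RPKM in control. PAX8 made up most of this sum, and the part of the sum in the changes below was not tested. Markers of distal nephron, endothelium and immune cells summed to less than 1 RPKM in each library. Of 4 fibroblast markers PDGFRA and PDGFRB were under 0.2 RPKM, and the matrix genes LUM and DCN were not, with LUM at 69.9 ± 2.14 RPKM with GDF5 and 73.7 ± 3.17 RPKM in control. The fibroblast markers summed to 71.0 to 75.6 RPKM with GDF5 and 74.1 to 80.5 RPKM in control.

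Promoter sequences of VCAM1, LCN2 and DCDC2 are shown because VCAM1 and LCN2 are textbook targets of NF-kappaB and were lower with GDF5, as was DCDC2. Promoter windows (the 250 bases before the gene start, RefSeq, GRCh38.p14) were on hand for 7 of the 9 genes. They were searched on both strands for GGG and CC with any 5 bases between them, a loose form of the NF-kappaB site, for TATAAA, for TGANTCA, a form of the AP-1 site, and for GGCGCC, a form bound by SMAD1/5, which carry signals of the bone morphogenetic protein family. The first line below is the whole VCAM1 window, with matches to the NF-kappaB form and TATAAA in capitals. The others are 30 bases around the match in LCN2 and in DCDC2, in capitals. All are printed 5′ to 3′ on the strand of the gene.
VCAM1, chr1:100719492-100719741, plus strand: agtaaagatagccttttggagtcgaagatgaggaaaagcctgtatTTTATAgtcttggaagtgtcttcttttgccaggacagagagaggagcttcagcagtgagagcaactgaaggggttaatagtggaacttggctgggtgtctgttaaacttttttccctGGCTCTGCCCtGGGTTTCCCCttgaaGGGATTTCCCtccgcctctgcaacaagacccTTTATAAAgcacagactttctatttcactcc
LCN2, chr9:128149267-128149296, plus strand: gcagcactccGGGAATGTCCctcactctcc
DCDC2, chr6:24358144-24358173, minus strand: gtaagaaattGGGTTTCACCatatttgtgt
In VCAM1 the 3 matches to the loose NF-kappaB form begin 88, 77 and 62 bases before the start. The match in LCN2 begins 176 bases before the RefSeq start at position 128149453 and overlaps another match. GENCODE 29 begins LCN2 further upstream, so that this window lies inside its LCN2 gene and holds LCN2 exon sequence. Exons in GENCODE 29 also reach into the windows of SPP1, HAVCR1 and CD44 and some of those of PROM1, and an exon of KAAG1 into that of DCDC2. The form is common: 54.4% of 35116 promoter windows of the same length hold at least 1 match, and 32.75% hold 2 or more. CD44, which rose with GDF5, also holds 3 matches, which begin 157, 156 and 87 bases before the start. PROM1 holds the form in some of its windows, and the letters are not in the windows of SPP1 and HAVCR1. TATAAA was found in VCAM1, against 10.7% of all windows. The AP-1 form was found in LCN2, where it begins 52 bases before the RefSeq start, and in 1 window of PROM1, against 6.6% of all windows. The SMAD1/5 form was found in 1 window of PROM1, against 16.4% of all windows. A match is a description of the letters and not of binding.

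The highest of the markers was SPP1, at 403 to 412 RPKM with GDF5 and 425 to 441 RPKM in control. HAVCR1 and IGFBP7 followed near 100 RPKM. Below them came DCDC2, CD44, CLU and VCAM1, in the range from 4.44 to 52.4 RPKM. LCN2 and PROM1 stood at the bottom, with PROM1 under 0.1 RPKM in every library. In GDF5 libraries no gene overlapped the next one in this order. In control libraries the ranges of CD44, at 19.3 to 19.6 RPKM, and CLU, at 18.0 to 19.4 RPKM, overlapped, and all other neighbours were apart. The level of SPP1 depends on the gene length used. The deposited values imply a length of 7250 bases for SPP1, whereas its exons in GENCODE 29 cover 2321 bases, and with that length SPP1 would average 1273 RPKM with GDF5 and 1354 RPKM in control. For the other markers the implied length was 0.999 to 1.003 of the GENCODE 29 length, or 0.950 of it in CLU. The length scales all libraries of a gene alike and leaves the ratio of group means unchanged. It does enter the level of 1 RPKM for the tests described below and their log2(RPKM + 1) scale.

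**Figure D1:**
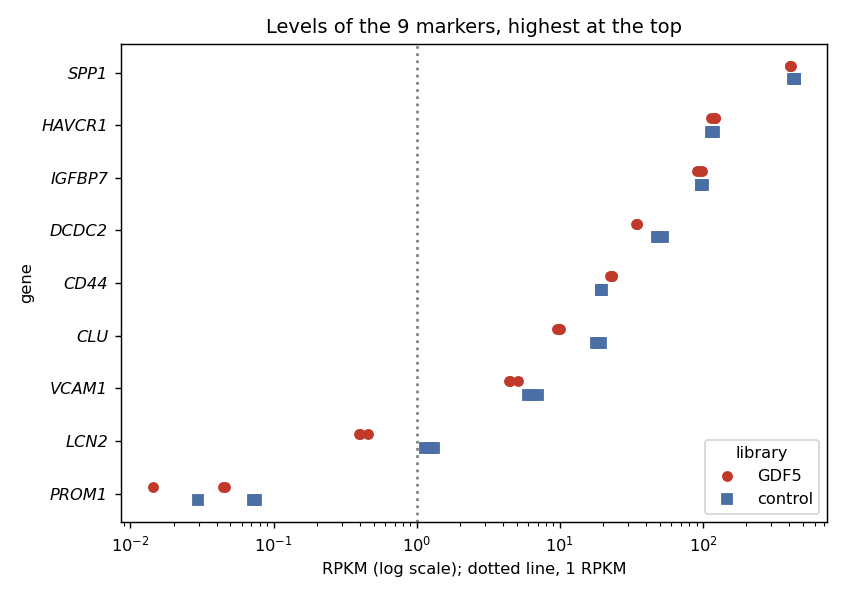
RPKM of the 9 markers in each library on a log axis, with genes down the page and 1 point per library (circles for GDF5, squares for control). SPP1 is at the top and PROM1 at the bottom, and the control points of CD44 and CLU lie at the same level while those with GDF5 are apart.

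Which of these markers differ between GDF5 and control was tested with limma on log2(RPKM + 1), over the 12476 genes with a mean of at least 1 RPKM. Of the 9 markers 7 reached that level. CLU, DCDC2 and VCAM1 fell with GDF5 and CD44 rose, at an adjusted p under 0.05, and HAVCR1, IGFBP7 and SPP1 were not called. These 4 calls among 7 stand beside 25.0% of all tested genes called, 7.48% higher and 17.5% lower. With median-of-ratios scaling the same 4 markers were called, beside 23.0% of all tested genes, 12.2% higher and 10.8% lower. On recovered reads limma-voom also called these 4, beside 29.1% of all tested genes. The groups did not overlap in 5 of the 7, against 43.9% of all tested genes. The median log2 change of the 7 was -0.09, and that of all tested genes was -0.05. LCN2 and PROM1 lay below the tested level and are described by their values. In RNA from whole cultures, fewer cells expressing a gene and less RNA per cell cannot be told apart.

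**Figure D2:**
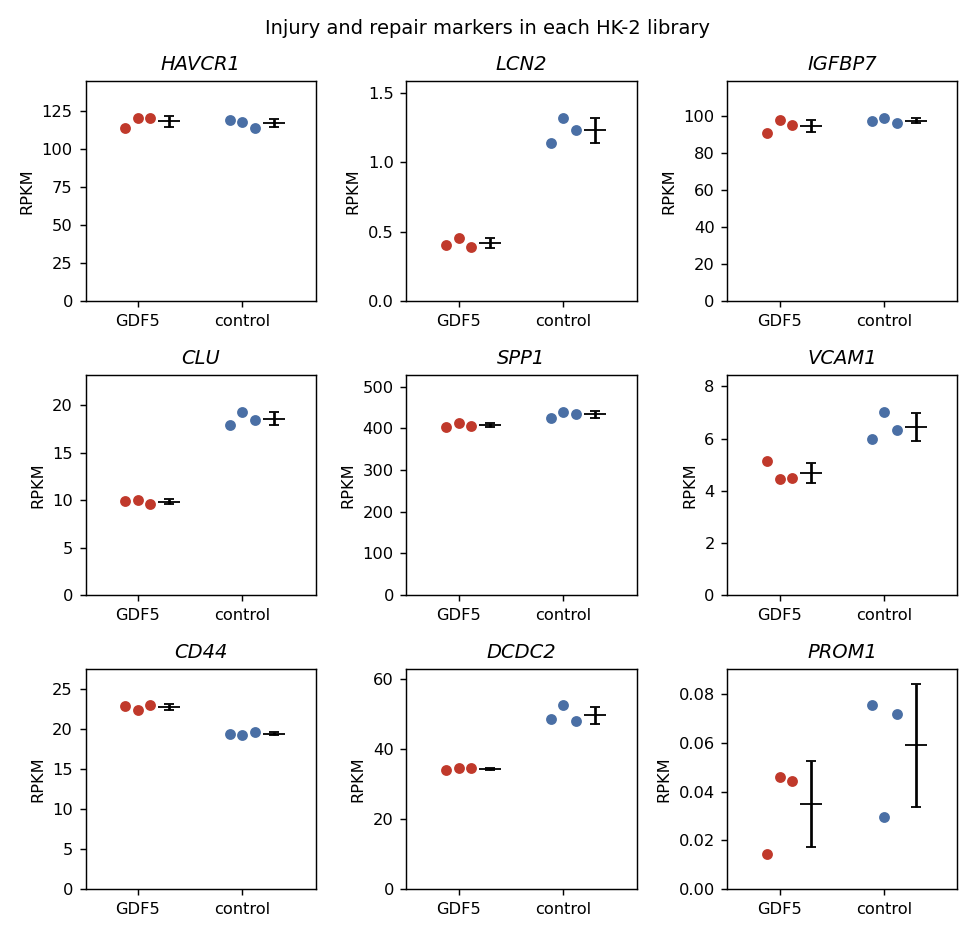
RPKM of each marker in the 3 GDF5 and the 3 control libraries, each panel with its own axis from 0. Points are libraries, and the bar beside them is the mean ± SD (n = 3). LCN2, CLU, VCAM1, SPP1 and DCDC2 lie lower in all GDF5 libraries than in any control library, CD44 lies higher, and HAVCR1, IGFBP7 and PROM1 overlap.

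Among the urinary markers at the tested level, CLU changed most. Clusterin is a secreted chaperone that is induced in injured tubules. CLU (ENSG00000120885, on chromosome 8) had 9.90, 10.1 and 9.57 RPKM in GDF5 replicates 1 to 3, against 18.0, 19.4 and 18.5 RPKM in control replicates 1 to 3. All 3 GDF5 libraries were thus lower than every control library, with a ratio of means of 0.529. The log2 change was -0.85 (standard error 0.04, limma, adjusted p = 2.45e-05). CLU rested on 2778 to 6506 reads per library.

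LCN2, a secreted lipocalin that binds iron-carrying siderophores, was low in all libraries and lowest with GDF5. LCN2 (ENSG00000148346, chr9:128149071-128153455) had 0.403, 0.457 and 0.393 RPKM in GDF5 replicates 1 to 3, against 1.14, 1.32 and 1.23 RPKM in control replicates 1 to 3. Behind these were 36, 32 and 34 reads in the GDF5 libraries and 87, 95 and 110 reads in the control libraries. The ratio of means was 0.340, and the groups were apart. In the fit without a filter on low values, where 5.30% of 34157 genes were called, LCN2 changed by -0.65 on the log2 scale (standard error 0.07, limma, adjusted p = 0.00696). That scale adds 1 to each value and so understates a gene near 1 RPKM. On recovered reads limma-voom, over genes with a mean of at least 0.5 RPKM, gave -1.49 (adjusted p = 0.000241). That run was added after seeing the data. The authors' deposited table gives -1.50. SLC22A17, a receptor described for LCN2, averaged 1.32 ± 0.106 RPKM with GDF5 and 1.45 ± 0.0867 RPKM in control (SD, n = 3 each) and was not called (limma, adjusted p = 0.407). LRP2 (megalin), which takes up both LCN2 and clusterin from the tubule lumen, was near 0.

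HAVCR1, a membrane glycoprotein that recognises phosphatidylserine on dying cells and whose outer part is shed into urine, was abundant in every library. HAVCR1 (ENSG00000113249, chr5:157029413-157059119) had 114.0, 120.6 and 120.2 RPKM in GDF5 replicates 1 to 3, against 118.9, 118.0 and 114.2 RPKM in control replicates 1 to 3. The groups overlapped. The log2 change was 0.01 with a 95% interval of -0.06 to 0.09 (limma, adjusted p = 0.774). It was 0.07 with median-of-ratios scaling, also not called (limma, adjusted p = 0.184). With 11387 to 14031 reads per library, that interval rests on the spread between libraries more than on counting. The level of HAVCR1 was higher than that of 98.5% of all tested genes.

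IGFBP7, a secreted protein of the insulin-like growth factor binding family that is used with TIMP2 as a urinary marker of tubular stress, was likewise high in both groups. IGFBP7 (ENSG00000163453, chr4:57030773-57110385) had 91.1, 97.8 and 95.2 RPKM in GDF5 replicates 1 to 3, against 97.2, 99.1 and 96.3 RPKM in control replicates 1 to 3. These ranges overlapped, and the log2 change was -0.04 with a 95% interval of -0.12 to 0.04 (limma, adjusted p = 0.375). Its exons share 270 bases with those of POLR2B on the other strand, and whether the authors counted by strand is not given in the sources used here. POLR2B was at 28.1 to 29.5 RPKM with GDF5 and 29.6 to 31.2 RPKM in control.

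Osteopontin and CD44 are a ligand and its receptor, and they did not show the same pattern. SPP1 (ENSG00000118785, chr4:87975650-87983426), which encodes the secreted phosphoprotein osteopontin, had 403.4, 412.5 and 406.6 RPKM in GDF5 replicates 1 to 3, against 424.8, 440.7 and 435.3 RPKM in control replicates 1 to 3. Each GDF5 library was below each control library, yet the difference of -0.09 on the log2 scale was not called (standard error 0.03, limma, adjusted p = 0.0534). With median-of-ratios scaling, which sets the median log2 change over all tested genes at -0.0035, the groups overlapped, as in all but 41.8% of tested genes, and the log2 change of SPP1 was -0.03 (limma, adjusted p = 0.460).

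CD44, a cell surface receptor for hyaluronan and osteopontin that appears on injured tubule cells, was the only one of the 7 tested markers that rose. CD44 (ENSG00000026508, chr11:35138870-35232402) had 22.9, 22.4 and 23.0 RPKM in GDF5 replicates 1 to 3, against 19.4, 19.3 and 19.6 RPKM in control replicates 1 to 3. Every GDF5 library was above every control library, by 17.2% in the means. The log2 change was 0.22 (standard error 0.03, limma, adjusted p = 0.00199). GENCODE 29 lists 39 transcripts of CD44, and the deposited values sum over them, so its splice forms are not resolved here.

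Among 19 genes for ligands, receptors and other partners of the markers, 15 were tested. Of these, 3 rose and none fell in limma at an adjusted p under 0.05, or 20% called beside 25.0% of all tested genes, of which 7.48% were higher and 17.5% lower. At an unadjusted p under 0.05 there were 5 higher and 1 lower, beside 4906 of all 12476 tested genes in either direction. On recovered reads limma-voom called 6 higher and 0 lower, beside 1879 higher and 1749 lower among all 12476 tested genes. With median-of-ratios scaling 5 were higher and 0 lower, beside 12.2% and 10.8% of all tested genes. Without GDF5 replicate 1 there were 3 higher and 1 lower, beside 937 and 2162 of 12499 genes. HAS3, an enzyme that makes hyaluronan, averaged 50.8 ± 0.944 RPKM with GDF5 and 44.5 ± 1.00 RPKM in control (SD, n = 3 each), a log2 change of 0.18 (limma, adjusted p = 0.00551). ITGAV, the integrin alpha chain that binds osteopontin, rose by 0.18 on the log2 scale, and RDX (radixin), which links CD44 to actin, rose by 0.25. The call of RDX ended without GDF5 replicate 2 (limma, adjusted p = 0.0565) and without a filter (0.0585). The relatives of radixin, EZR (ezrin) and MSN (moesin), had log2 changes of 0.03 and 0.01 and were not called with the values as deposited. On recovered reads EZR was called higher (limma-voom, adjusted p = 0.0491) and MSN was not (limma-voom, adjusted p = 0.0724). The authors' deposited table gives log2 changes of 0.09 for EZR and 0.08 for MSN, with adjusted p-values of 0.0302 and 0.0373. Of the beta chains in this list that pair with ITGAV, ITGB1 was at 0.03, ITGB3 at -0.05 and ITGB5 at -0.04, none of them called. The beta chain genes ITGB6 and ITGB8 are in the failed-repair list below. ITGB8 was called lower, at -0.23 (limma, adjusted p = 0.00559), and ITGB6, at -0.05, was not called (limma, adjusted p = 0.397). The median log2 change of the 15 was 0.02, beside -0.05 for all tested genes.

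VCAM1, an immunoglobulin-type adhesion molecule that binds the integrin of alpha 4 and beta 1 chains on leukocytes, fell. VCAM1 (ENSG00000162692, chr1:100719742-100739045) had 5.13, 4.44 and 4.47 RPKM in GDF5 replicates 1 to 3, against 5.97, 7.03 and 6.34 RPKM in control replicates 1 to 3. The groups were apart, with GDF5 replicate 1 the nearest to control. The ratio of means was 0.726 and the log2 change -0.39 (standard error 0.07, limma, adjusted p = 0.00778). Without GDF5 replicate 1 the log2 change was -0.45 (limma, adjusted p = 0.00542).

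VCAM1 and LCN2 are both known targets of NF-kappaB, and a list of 14 feedback and target genes of that factor was read beside them. Of 12 tested, 7 fell and 1, NFKBIA, rose in limma, where 17.5% of all tested genes were lower and 7.48% higher, with a median log2 change of -0.15 beside -0.05 for all tested genes. After median-of-ratios scaling the calls were 6 lower and 2 higher, where 10.8% of all tested genes were lower and 12.2% higher, and without control replicate 1, or without a filter, 5 lower and 0 higher. The 2 higher were NFKBIA and the chemokine gene CCL2 (limma, adjusted p = 0.0468, or 0.0628 with the values as deposited). CCL2 averaged 1.42 ± 0.248 RPKM with GDF5 and 0.985 ± 0.105 RPKM in control (SD, n = 3 each), with the groups apart. CXCL8 (interleukin 8) averaged 76.9 ± 2.53 RPKM with GDF5 and 116.5 ± 1.75 RPKM in control, and BIRC3, an inhibitor of apoptosis, 3.55 ± 0.209 RPKM with GDF5 and 5.71 ± 0.213 RPKM in control (SD, n = 3 each). The complement gene C3 fell by 0.32 on the log2 scale. ICAM1, the other inducible immunoglobulin-type adhesion molecule of tubule cells, fell by 0.30 (limma, adjusted p = 0.00167), to 26.9 ± 0.964 RPKM with GDF5, against 33.4 ± 0.912 RPKM in control. NFKBIA encodes the inhibitor that NF-kappaB itself induces, and its log2 change was 0.16 (limma, adjusted p = 0.0208). Its call ended without a filter and without control replicate 1 or 2 or GDF5 replicate 2 or 3 (limma, adjusted p = 0.0584 to 0.0705). Among the genes that fell, the call of TNFAIP3 (-0.15, limma, adjusted p = 0.0405) ended in 10 of 12 alternatives. That of IL6 (-0.28, limma, adjusted p = 0.0209) ended in 4 of 12. The calls of CXCL8, BIRC3, C3, ICAM1 and TNIP1 held in all 12. The genes of the factor's own subunits NFKB1, NFKB2 and RELA were not called, at -0.05, -0.10 and -0.02. RELB, from the failed-repair list below, was at -0.13 and not called (limma, adjusted p = 0.168). The subunit gene REL lay below the tested level, at 0.934 ± 0.0273 RPKM with GDF5 and 0.794 ± 0.0472 RPKM in control (SD, n = 3 each). For REL the authors' deposited table gives a log2 change of 0.30 with an adjusted p of 0.0415.

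DCDC2 binds microtubules through its doublecortin domains and is found in primary cilia. DCDC2 (ENSG00000146038, chr6:24171756-24358052) had 33.9, 34.5 and 34.5 RPKM in GDF5 replicates 1 to 3, against 48.7, 52.4 and 47.9 RPKM in control replicates 1 to 3. The GDF5 libraries were close to each other and all below control, with a ratio of means of 0.691. The log2 change was -0.52 (standard error 0.04, limma, adjusted p = 0.000217). Exons of KAAG1 on the other strand share 595 bases with DCDC2, and KAAG1 was at 0.240 to 0.626 RPKM with GDF5 and 0.503 to 0.799 RPKM in control.

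PROM1 (prominin, also CD133) marks membrane protrusions and scattered tubule cells. PROM1 (ENSG00000007062, chr4:15963076-16084378) had 0.0144, 0.0458 and 0.0445 RPKM in GDF5 replicates 1 to 3, against 0.0755, 0.0297 and 0.0718 RPKM in control replicates 1 to 3. These rest on 6, 15 and 18 reads with GDF5 and 27, 10 and 30 reads in control, and the groups overlapped. The ratio of means was 0.591, and the authors' deposited table gives a log2 change of -0.71 with an adjusted p of 0.797. On the log2(RPKM + 1) scale values this low can give only a change near 0, so no test on that scale is given. The SD was 51.0% of the mean with GDF5 and 43.1% in control. A difference was not detectable at this depth and with this spread between libraries.

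**Figure D3:**
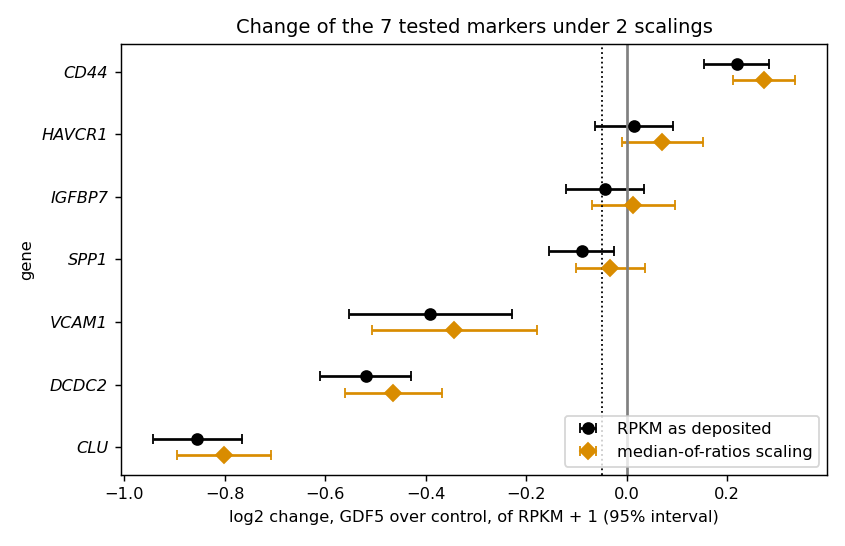
Log2 change of RPKM + 1, GDF5 over control, for the 7 tested markers with 95% intervals, for the values as deposited (circles) and with median-of-ratios scaling (diamonds). The dotted line is the median of all tested genes, -0.05. CLU, DCDC2 and VCAM1 lie left of 0 and CD44 right of it under both scalings, and IGFBP7 changes sides near 0.

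The markers can be set beside other genes of the same themes, in lists chosen with earlier results of these data known. In a list of 12 genes described in tubule cells that fail to repair, 10 were tested, of which 2 rose, 3 fell and 5 were not called, beside 7.48% of all tested genes higher and 17.5% lower. SOX4, a transcription factor of epithelial progenitors, averaged 54.9 ± 1.13 RPKM with GDF5 and 79.2 ± 3.23 RPKM in control (SD, n = 3 each), a log2 change of -0.52 (limma, adjusted p = 0.000175). The integrin gene ITGB8 fell by 0.23 and KLF6 by 0.20 on the log2 scale. The actin-binding gene TPM1 rose by 0.31 and the transcription factor gene CREB5 by 0.28. SOX9, which marks regenerating tubule cells, had 2.24 ± 0.264 RPKM with GDF5 and 2.50 ± 0.242 RPKM in control and was not called, nor was CDH6, a cadherin of immature tubules, at 120.9 ± 3.42 and 122.3 ± 3.23 RPKM in GDF5 and control libraries. The median log2 change of the 10 was -0.08, beside -0.05 for all tested genes. With median-of-ratios scaling 3 were higher and 3 lower, beside 12.2% and 10.8% of all tested genes.

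Genes switched on in acute tubular injury also went both ways. Of 15 tested, 3 rose, 6 fell and 6 were not called (3 and 3 called without GDF5 replicate 3), beside 7.48% of all tested genes higher and 17.5% lower. The median log2 change was -0.04, beside -0.05 for all tested genes. S100A6, a calcium-binding protein, averaged 317.4 ± 6.93 RPKM with GDF5 and 454.5 ± 5.27 RPKM in control, a log2 change of -0.52 (limma, adjusted p = 6.31e-05). ANXA3 fell by 0.33 and the galectin gene LGALS3 by 0.28 on the log2 scale. FOSL1, a subunit of AP-1, averaged 16.0 ± 0.421 RPKM with GDF5 and 10.6 ± 0.899 RPKM in control, and HBEGF, a ligand of the epidermal growth factor receptor, 14.0 ± 0.483 RPKM with GDF5 and 9.81 ± 0.189 RPKM in control (SD, n = 3 each). Their log2 changes were 0.56 and 0.47. With median-of-ratios scaling 5 were higher and 5 lower, beside 12.2% and 10.8% of all tested genes, and the median was 0.02.

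Of 10 further biomarkers of kidney injury 7 were tested, of which 4 fell and none rose in limma at an adjusted p under 0.05, beside 17.5% of all tested genes lower and 7.48% higher. At an unadjusted p under 0.05 there were 7 lower and 0 higher, beside 4906 of all 12476 tested genes in either direction. On recovered reads limma-voom called 5 lower and 0 higher, beside 1749 lower and 1879 higher among all 12476 tested genes. TIMP2, the urinary partner of IGFBP7, averaged 45.9 ± 0.318 RPKM with GDF5 and 49.5 ± 0.330 RPKM in control (SD, n = 3 each), a log2 change of -0.11 (limma, adjusted p = 0.0199). IL18, a cytokine released by injured tubules, fell by 0.26, B2M, the light chain of MHC class I, by 0.15 and the brush border enzyme gene GGT1 by 0.25. With median-of-ratios scaling 1 of the 7, B2M, was called lower, beside 10.8% of all tested genes, while TIMP2 (limma, adjusted p = 0.188), IL18 (0.0852) and GGT1 (0.0684) were not. Leaving out 1 library at a time left 1 of these 4 calls, B2M, without control replicate 1 or 2, and 2 of them without control replicate 3 or any of the GDF5 replicates. The median log2 change was -0.23, or -0.18 with that scaling.

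**Figure D4:**
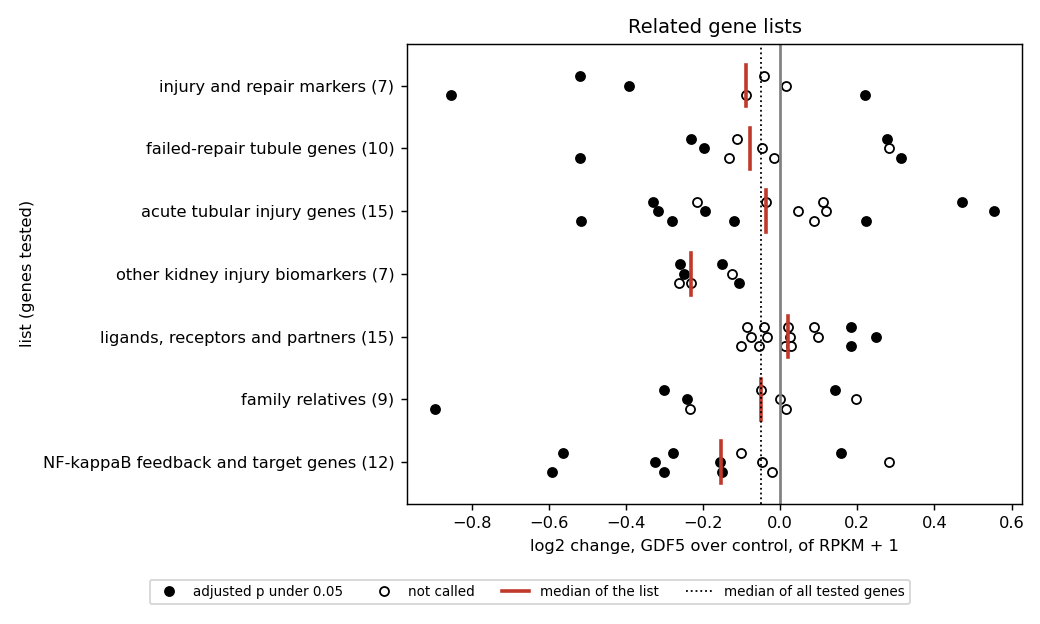
Log2 change of RPKM + 1, GDF5 over control, for the tested genes of the markers and 6 related lists, 1 point per gene, filled where the limma adjusted p is under 0.05. The red bar is the median of a list and the dotted line that of all tested genes, -0.05. The injury and repair lists have called genes on both sides of 0, the biomarker list has them on the left and the partner list on the right.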

How the data were processed

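The 6 RPKM columns, 1 per library, were deposited by the authors without a unit in the header, and the unit was read from the values. HISAT2, DESeq2 and GRCh38 are named in the submitters' processing notes, without versions. Which counter and annotation made the values is not stated there. The authors also deposited a mean signal per group (reads divided by size factors), a log2 fold change and p-values, per the file headers, quoted only as the authors' deposited table. Reads behind the RPKM were recovered from the steps of low values and the group means: of 64633 values below 20 reads, 100% were whole to within 0.1. Even numbers made up 63.7% of them, so some fragments may be counted by mate.

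Genes with a mean of at least 1 RPKM were compared on log2(RPKM + 1) with limma 3.58.1 in R 4.3.3, with a variance trend, no block, two-sided tests and Benjamini-Hochberg adjustment over all tested genes (threshold 0.05). Simulated data were used to test the fit. The markers and lists were chosen with earlier results of these data known. From each list up to 4 called genes with the smallest adjusted p were to be named, and others named were chosen after their values were seen. A gene of the proximal tubule list is not reported here. Coordinates are from GENCODE 29 on GRCh38, in which 96.9% of the identifiers were found. Alternatives were another pseudocount, filter, scaling or threshold, a replicate block, limma-voom on recovered reads, and leaving out each library.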

Additional observations from a re-analysis of the deposited data

How the results depend on the processing

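The calls of CLU, DCDC2, VCAM1 and CD44 kept their direction and stayed under 0.05 in all 12 alternatives run for each. Their log2 changes ranged from -0.91 to -0.80, -0.54 to -0.46, -0.45 to -0.34 and 0.21 to 0.29. LCN2, tested without a filter, stayed lower in 9 alternatives, 8 of them added after seeing the data, with limma adjusted p-values from 0.000241 to 0.0427. SPP1 was called in none of 12, with adjusted p-values from 0.0512 to 0.460. HAVCR1 ranged from -0.0029 (without control replicate 3) to 0.041 with 1 library left out, and was 0.071 with median-of-ratios scaling (adjusted p = 0.184) and 0.0715 with limma-voom (0.150), uncalled each time. IGFBP7 turned to 0.0132 with median-of-ratios scaling and to 0.0127 with limma-voom on recovered reads, which also used that scaling, uncalled each time. The scaling divided the RPKM by 0.979 to 0.984 in GDF5 libraries and by 1.015 to 1.027 in control libraries. Why these factors differ between the groups was not tested. Over all genes, 3116 were called, against 1812 without a filter, where 34157 genes share the adjustment, 1285 at an adjusted p under 0.01, and 1763 to 3099 with 1 library left out. With median-of-ratios scaling 1524 genes were higher and 1343 lower, against 933 and 2183 with the values as deposited. Equal replicate numbers did not mark shared deviations (correlations -0.037, 0.057 and -0.031), and with the replicate number as a block 2167 genes and the same number of markers, 4, were called. PROM1, at 6 to 30 reads per library, is limited by few reads and by the spread between libraries, and LCN2 rests on 32 to 110 reads.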

Other observations

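Relatives of the markers were read from a list of 19 genes, of which 9 were tested, with 1 higher and 3 lower in limma (0 and 2 without GDF5 replicate 2, GDF5 replicate 3 or control replicate 2), beside 7.48% of all tested genes higher and 17.5% lower. IGFBP5, a binding protein of insulin-like growth factors, averaged 3.65 ± 0.138 RPKM with GDF5 and 7.66 ± 0.484 RPKM in control (SD, n = 3 each), a log2 change of -0.90 (limma, adjusted p = 6.62e-05). Its relative IGFBP3 had 101.9 ± 2.93 RPKM with GDF5 and 92.2 ± 2.60 RPKM in control, a log2 change of 0.14 (limma, adjusted p = 0.0223), while IGFBP7 was not called. The call of IGFBP3 ended without a filter and without control replicate 2 or 3 or GDF5 replicate 2 or 3 (limma, adjusted p = 0.0551 to 0.0826). DCLK1, which like DCDC2 carries doublecortin domains, fell by 0.24 (limma, adjusted p = 0.0372), and was not called with median-of-ratios scaling (adjusted p = 0.0670), without a filter (0.123), or when any library but control replicate 3 was left out (0.0774 to 0.109). TIMD4, of the family of HAVCR1, was at 2.60 ± 0.0403 RPKM with GDF5 and 2.57 ± 0.171 RPKM in control and was not called. PROM2, the relative of PROM1, averaged 0.485 ± 0.0655 RPKM with GDF5 and 0.622 ± 0.0911 RPKM in control, below the tested level.

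For each tested marker, the genes most like it were taken by Pearson's correlation of log2(RPKM + 1) over the 6 libraries, among 9915 genes with a symbol and a mean of at least 2 RPKM. For CLU these were RAN (0.9996) and DUT (0.9991), for DCDC2 MYO6 (0.9993) and GBA2 (0.9992), for CD44 ARID3B (0.9989) and TAF15 (0.9986), and for SPP1 MPC2 (0.9967) and BEX3 (0.9959). VCAM1 was most like NDUFB9 and LANCL2 (both 0.9955), IGFBP7 like RALGPS2 (0.9901) and MYCBP (0.9891), and HAVCR1 like POT1 (0.9863) and ATXN7 (0.9832). These are descriptions over 6 libraries of 2 groups, which share the split between the groups and the library totals.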
